A study of Rattus norvegicus with 12 samples.

Results

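The cytosolic ribosomal protein genes were examined in left atrial RNA from 12 male rats. Members were the genes whose symbol begins with Rpl or Rps followed by a number and at most 1 further letter and digit, together with Rplp0, Rplp1, Rplp2 and Rpsa. The ribosomal S6 kinases, whose symbols begin with Rps6k, were left out. This rule found 77 genes among the 21239 genes with counts, of which 43 encode proteins of the large subunit, 31 proteins of the small subunit and 3 proteins of the P stalk. The symbol Rps9 also met the rule, but its row held no counts. All 77 members passed the filter on low counts in each comparison. The rule used no expression level beyond the presence of counts, but it was set with earlier results of these data known.

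The libraries fell into 4 groups of 3 (WKY, SHR, ARB and ARNI). Wistar-Kyoto (WKY) rats are the normotensive relatives of spontaneously hypertensive rats (SHRs), and the WKY and SHR groups received saline (7.5 ml/kg/day). The ARB group consisted of SHRs given the angiotensin receptor blocker valsartan (30 mg/kg/day). The ARNI group consisted of SHRs given sacubitril/valsartan (60 mg/kg/day), in which a neprilysin inhibitor is added to valsartan. The animals were bought at 14 weeks of age and dosed for 4 weeks. According to the methods, the libraries of a group came from separate rats. No group combined sacubitril with saline, so a difference between ARNI and ARB also contains any difference in the valsartan dose. For the 6 libraries of the saline groups, the strain words in the titles and the library names in brackets were opposite, and the names were followed here. If the words were followed instead, every difference between SHR and WKY given here would change its sign, and the ARB and ARNI groups would be set against the other saline group. The ARB and ARNI libraries carried the strain entry Wistar-Kyoto beside an SHR phenotype.

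The tissue label was checked against chamber markers. Myl7, the atrial myosin light chain, was at 15.9, 3.30 and 0.889 CPM (counts scaled to a library total of 1000000) in the 3 WKY libraries and 9.67 CPM in ARNI replicate 2, against 4478 to 11547 CPM in the other 8 libraries. Sln, the atrial regulator of the calcium pump, was at 0.261 to 1.57 CPM in the same 4 libraries and 668 to 1736 CPM elsewhere. Myl2, the ventricular myosin light chain, was at 3489 to 4161 CPM in these 4 libraries, 2298 CPM in SHR replicate 2 and 2573 CPM in ARB replicate 3, and at most 24.2 CPM in the other 6. The defining atrial markers were thus near 0 in all WKY libraries, and strain and heart chamber cannot be told apart in the comparison of SHR with WKY. Total counts per library ran from 11252361 to 15823525, so that 3 reads stood for 0.190 to 0.267 CPM. These are bulk samples, in which fewer cells of a type and less RNA per cell cannot be told apart.

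Each ribosome holds a copy of nearly every ribosomal protein, and their mRNAs are among the most abundant of any cell. Many of these mRNAs begin with a cytosine and a run of pyrimidines, the 5′ terminal oligopyrimidine (TOP) tract, through which mTORC1 and the RNA-binding protein Larp1 control their translation. In the heart, ribosome number rises when cardiomyocytes grow, and striated muscle also uses tissue-specific copies of some ribosomal proteins, such as Rpl3l in place of Rpl3. mRNA levels measured here do not report translation.

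The annotated start sites of the members were searched for the TOP tract. The shares found depend on the annotated base and need not be the share of mRNAs that carry a tract. RefSeq promoter sequences of GRCr8 were found by gene ID for 58 of the 77 members (59 start sites), and 19 had none. A start at cytosine followed by at least 4 pyrimidines occurred at 21 of the 59 start sites (35.6%), against 2.63% of all 33469 rat start sites in the same table. A further 9 member sites began with thymine and a run of at least 5 pyrimidines from that base on. The annotated start can be off by a few bases. The longest tracts, of 12 pyrimidines, were at Rpl10 and Rpl31. Rpl10 joins the large subunit late in its assembly. The windows below run from 10 bases before the start to the 20th base of the transcript, and capitals mark the TOP tract. Rpl10 (chrX:157205840-157205869, plus strand) is shown for its long tract, and the others because they passed the test between SHR and WKY. Rpl31 (chr9:49143101-49143130, plus strand), Rps7 (chr6:50999426-50999455, minus strand) and Rplp1 (chr8:71290853-71290882, minus strand) start with a tract. Rpl3 (chr7:113507971-113508000, minus strand) and Rps16 (chr1:92770648-92770677, plus strand) do not at the annotated base.
Rpl10: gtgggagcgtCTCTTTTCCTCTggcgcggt
Rpl31: atccctcgcgCCTTTCCTTTCCaacttggg
Rps7: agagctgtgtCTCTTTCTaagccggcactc
Rplp1: cgcatgtgatCCTTTCCTCagctgccgcca
Rpl3: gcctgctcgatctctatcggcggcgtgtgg
Rps16: aaaatcggtcggggtggccccaagctttcc
Each sequence is written 5′ to 3′ on the strand of the gene. Among the members shown, a tract was found at genes that rose (Rpl31, Rps7) and at the one that fell (Rplp1). It was not found at the annotated base of 2 that rose (Rpl3, Rps16). Of these, Rpl3 is among the 9 sites that began with thymine and a pyrimidine run. Its run of 5 pyrimidines starts at the annotated base, and no cytosine in it is followed by at least 4 pyrimidines.

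Further motifs were looked for on both strands from 250 bases before to 50 after the start. The letters CCGGAAG, a core of ETS factor sites, stood at 19 of the 59 member sites (32.2%) and at 8.75% of all sites. The letters AAGATGG, a core of YY1 sites, stood at 8 member sites (13.6%) and at 7.01% of all. The ETS core on the other strand can run into a TOP tract, and 7 member sites held both. The members with a TOP start had a median log2 fold change of 0.28 between SHR and WKY (21 members) and those without one 0.24 (36 members), and the medians were 0.36 and 0.35 between ARB and SHR. Rps27a, with 2 start sites, was left out of these medians. The 2 medians were thus nearly the same in either comparison. The members without a TOP start include the 9 that began with thymine and a pyrimidine run. The split therefore rests on the annotated base, and a part of the TOP tract in these changes was not tested.

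The summed level of the 77 members made up 1.61% to 3.30% of the counts of a library. In WKY it was 17532, 18172 and 16145 CPM, and in SHR it was 25443, 21590 and 20674 CPM. In ARB it was 27521, 23655 and 33030 CPM, and in ARNI 21721, 17989 and 22451 CPM. All SHR and ARB libraries lay above all WKY libraries, while ARNI replicate 2, the treated library without atrial markers, lay within the WKY range. The means were 17283 ± 1036 CPM in WKY, 22569 ± 2531 CPM in SHR, 28069 ± 4712 CPM in ARB and 20720 ± 2393 CPM in ARNI (SD, n = 3 each). ARB replicate 3 decided the height of the ARB mean, which was 25588 CPM without it.

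The sums were also scaled by the trimmed mean of M values (TMM), which corrects for differences in library composition. The TMM-scaled sums were 18313, 18993 and 17220 CPM in WKY and 24449, 21834 and 18613 CPM in SHR. They were 27141, 21513 and 34868 CPM in ARB and 21374, 19853 and 21431 CPM in ARNI. On this scale SHR replicate 3 lay below WKY replicate 2, so that SHR overlapped with WKY, while SHR and ARB overlapped on both scales. The sums are given as a description, with no test.

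**Figure D1:**
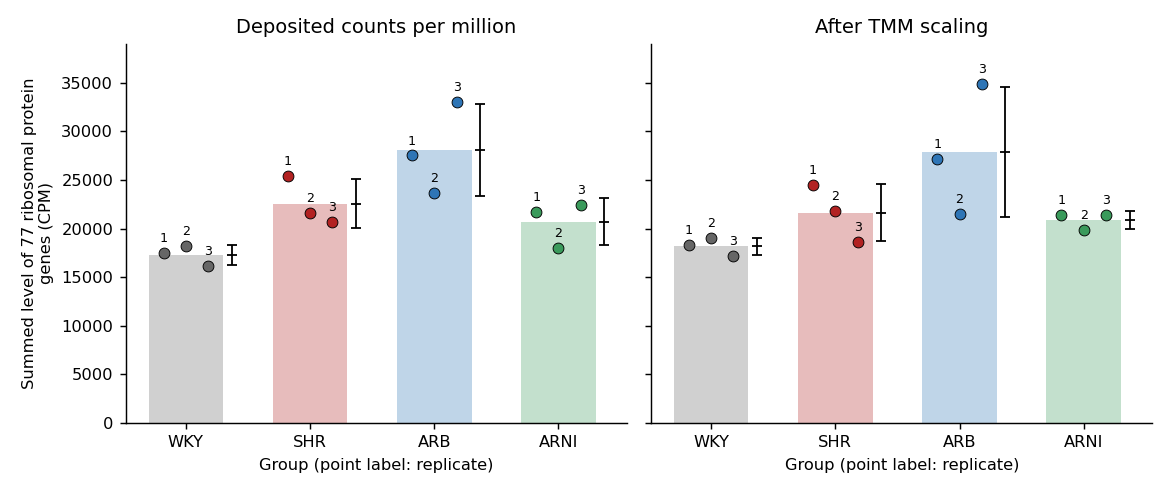
Summed level of the 77 ribosomal protein genes in CPM by group, from the deposited counts (left) and after TMM scaling (right). Points are libraries with their replicate number, bars are group means and the error bars beside them are the SD (n = 3). ARB replicate 3 is highest on both scales, at 33030 and 34868 CPM, and the 3 WKY libraries are at most 18993 CPM.

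The members moved as a block from library to library. The summed level of the large subunit genes divided by that of the small subunit genes stayed between 1.39 and 1.45 in the 12 libraries. In ARB replicate 3, the median member was 0.58 higher on the log2 scale than its own mean over the libraries, with quartiles of 0.50 and 0.67. In WKY replicate 3 the median member was at -0.44, with quartiles of -0.56 and -0.35. ARB replicate 3 held the highest value of 70 of the 77 members (73 after TMM scaling). WKY replicate 3 held the lowest value of 54 (40 after TMM scaling, when SHR replicate 3 held the lowest of 22).

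ARB replicate 3 also stood apart in marker genes of other cells. The summed level of 7 erythroid markers was 3846 CPM there, against 245 to 2168 CPM in the other 11 libraries. That of 10 myeloid markers was 606 CPM, against 99.7 to 395 CPM. The sum of 8 endothelial markers was lowest there, at 806 CPM against 955 to 1796 CPM elsewhere. So was that of 8 smooth muscle and pericyte markers, at 466 CPM against 521 to 958 CPM. ARB replicate 3 was intermediate for the chamber markers, as given above. The part of these cells in the ribosomal protein levels was not tested.

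**Figure D2:**
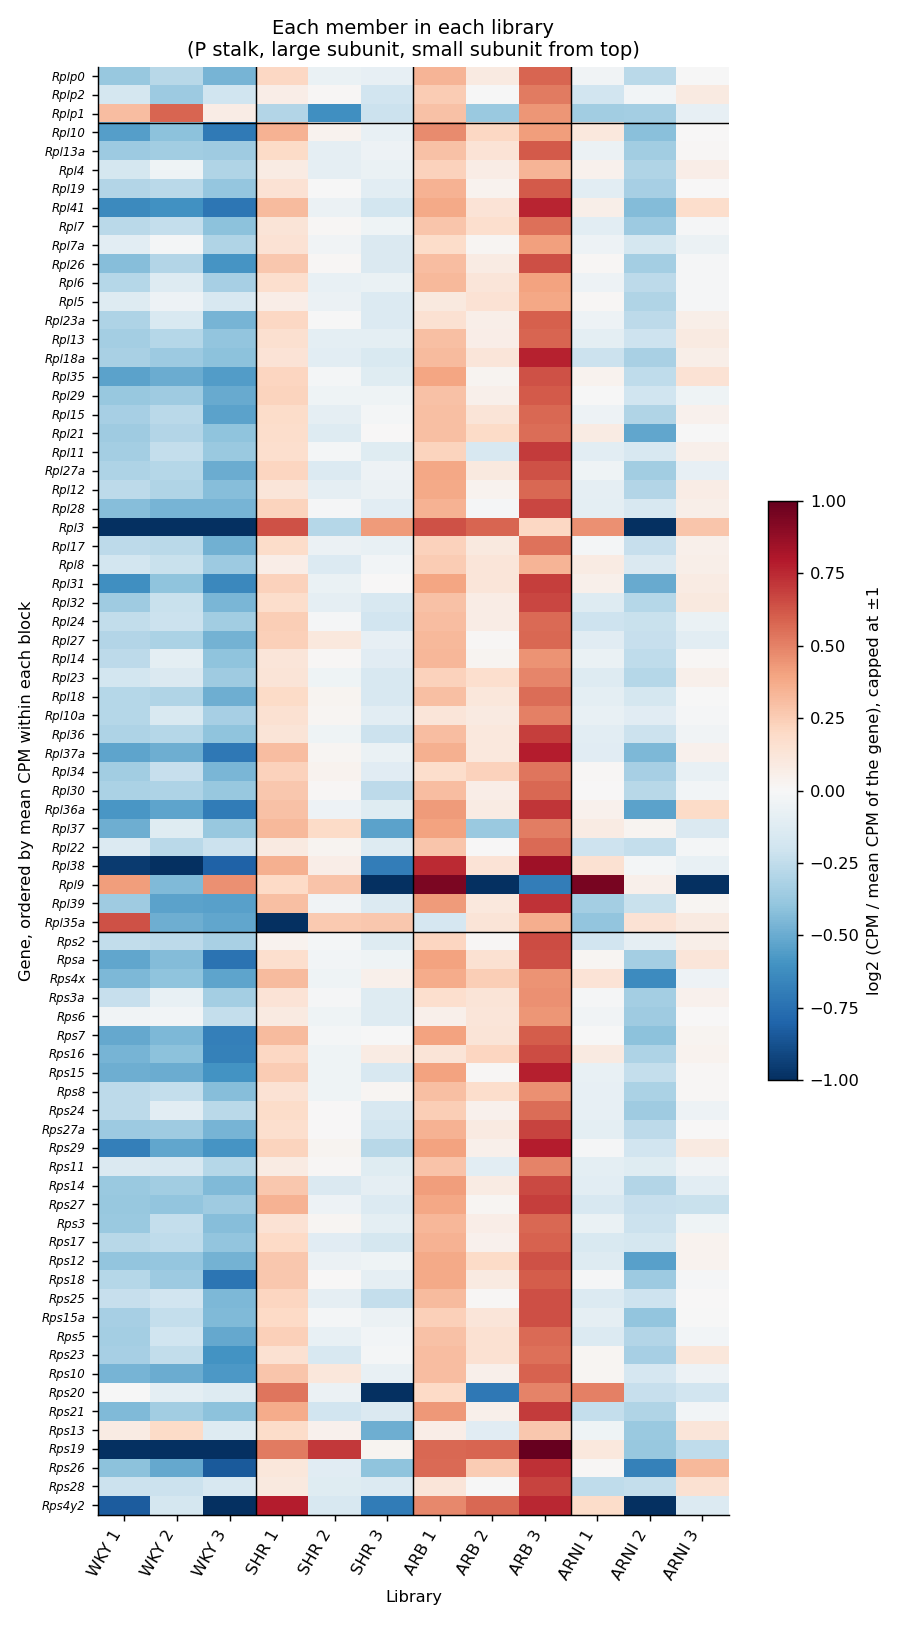
Each of the 77 members (rows, grouped as P stalk, large subunit and small subunit) in each of the 12 libraries (columns). Color is the log2 of CPM over the gene's mean CPM, after adding 0.1 CPM to both, capped at 1 in either direction. Most rows are high in ARB 3 and low in the WKY libraries, while Rpl3, Rpl9, Rps19 and Rplp1 have patterns of their own.

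The 8 members of the highest mean level were Rplp0, Rps2, Rpsa, Rpl10, Rpl13a, Rpl4, Rps4x and Rps3a, which together held 23.1% of the summed level. Rplp0, the scaffold protein of the P stalk, was at 643, 693 and 607 CPM in WKY and 968, 801 and 792 CPM in SHR. It reached 1064, 890 and 1254 CPM in ARB and 818, 697 and 835 CPM in ARNI. Its SHR libraries lay above its WKY libraries, and its ARNI libraries lay below its ARB libraries. Levels of different genes are not ranked further, because longer mRNAs give more reads and transcript lengths were not used here.

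The coefficient of variation over the 12 libraries had a median of 22.8% over the members. It was lowest for Rpl5 (12.7%), which binds the 5S rRNA together with Rpl11, and for Rpl4 (13.5%), a protein of the exit tunnel. It was highest for Rps19 (66.8%), Rpl9 (61.2%), Rpl3 (50.6%) and Rps4y2 (49.3%), which were singled out here after their values were seen. Rpl9 was at 101, 55.3 and 103 CPM in WKY, 86.3, 91.9 and 0 CPM in SHR, 144, 22.9 and 46.5 CPM in ARB and 145, 77.8 and 28.5 CPM in ARNI. The spread of Rpl9 within each group was as wide as that between groups. Its values were not whole in 11 of 12 libraries, which means that reads were shared out between genes.

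Such sharing was common. RSEM divides a read that matches several genes between them, and ribosomal protein genes have many near-identical processed copies. In all, 54% of the member values were not whole (by more than 0.001), against 23.6% of all values, and 28 members had no whole value in any library. The 27 members with whole values in all libraries had a median log2 fold change of 0.25 between SHR and WKY, and the other 50 had 0.23. Between ARB and SHR these medians were 0.36 and 0.34. The medians were thus much the same with and without shared reads.

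The comparison of SHR with WKY was meant to set hypertensive against normotensive rats, both given saline. Of the 77 members, 8 rose in SHR (adjusted p at most 0.05) and 1 fell in the quasi-likelihood test of edgeR, with p-values adjusted over 13794 genes (Benjamini-Hochberg). Over all genes, 12.3% rose and 8.26% fell, so the share of members that rose was close to the background. The members that rose were Rps19, Rpl3, Rpl37a, Rpl36a, Rps7, Rps10, Rpl31 and Rps16, and Rplp1 fell. Where a log2 fold change of 1 or more in either direction was also asked for, the members called were Rpl3 and Rps19 (2 of 77, against 8.89% of all genes). By DESeq2, 14 members rose and 1 fell, and 19.6% of all genes were called.

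Most members had small positive differences that did not pass the test. The median log2 fold change of the members was 0.24, against 0.01 over all genes, and 69 of the 77 were above 0. In CPM, the 3 SHR libraries lay above the 3 WKY libraries for 60 members and below them for 1, against 33.7% and 15.9% of all genes. After TMM scaling, 26 members lay above without overlap, against 24.5% of all genes. Without TMM the median of all genes moved to 0.15 and that of the members to 0.37, so the members stood about as far above the other genes on either scale.

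The calls depended on single libraries. Without WKY replicate 1 or without WKY replicate 2 no member was called, 2 were called without WKY replicate 3 or without SHR replicate 1, and 26 without SHR replicate 3. The share of all genes called was 20.6% with all 6 libraries, 2.93% to 6.86% in the first 4 of these fits and 17.97% in the last. The median was 0.15 without SHR replicate 1. When the atrial minus ventricular marker score was added as a covariate to a fit of all 12 libraries, no member was called, the share of all genes called was 0.816% and the median of the members was 0.35. The score was -6.74 to -6.66 in WKY and -6.18 in ARNI replicate 2, and at least -0.672 in all others. ARNI replicate 2 was thus the only library outside WKY with a score near those of WKY, and estimates with this covariate lean on it.

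**Figure D3:**
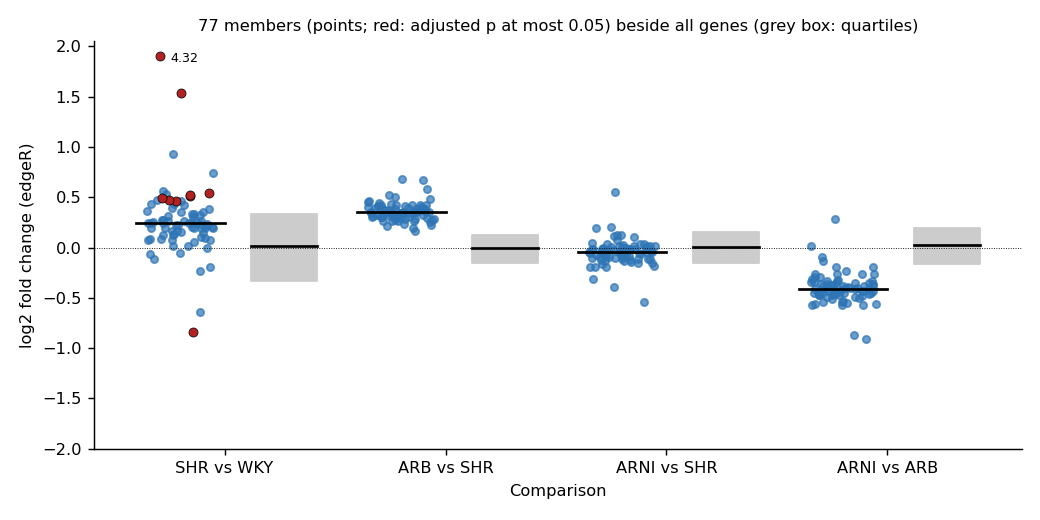
log2 fold changes by edgeR of the 77 members (points, red where the adjusted p is at most 0.05; black lines, medians) in the 4 comparisons, beside the quartiles and median of all genes tested (grey boxes). The Rps19 value of 4.32 is drawn at the upper edge. The medians of the members are 0.24, 0.35, -0.04 and -0.41 from left to right, and the points that passed the test are in the comparison of SHR with WKY.

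Rpl3, a large subunit protein that reaches toward the peptidyl transferase center, had the lowest p of the members. It was at 112, 122 and 96.0 CPM in WKY and 442, 234 and 382 CPM in SHR. It was at 442, 427 and 329 CPM in ARB and 391, 90.8 and 345 CPM in ARNI. The SHR libraries lay above the WKY libraries, and ARNI replicate 2 lay below all of them. The log2 fold change between SHR and WKY was 1.54 (SE 0.223, adjusted p = 0.00927 by edgeR), and with the chamber marker score as a covariate it was 0.00 (adjusted p = 0.996).

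Rpl3l, the striated muscle paralog of Rpl3 and not a member, ran opposite to it. Rpl3l was at 328, 340 and 311 CPM in WKY, 0.468, 220 and 1.22 CPM in SHR, 0.463, 4.40 and 225 CPM in ARB and 0.758, 392 and 23.3 CPM in ARNI. It was high in the same 6 libraries in which Myl2 was at 2298 CPM or more. Rpl3 and Rpl3l together were at 369 to 554 CPM in all 12 libraries. Rpl3l made up 73.6% to 76.4% of this sum in WKY, 81.2% in ARNI replicate 2, 48.5% in SHR replicate 2, 40.7% in ARB replicate 3 and at most 6.33% in the other 6 libraries. All values of both genes were whole, so no reads were shared between them. The difference of Rpl3l between SHR and WKY did not pass the test (log2 fold change -2.21, SE 1.78, adjusted p = 0.389 by edgeR).

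**Figure D4:**
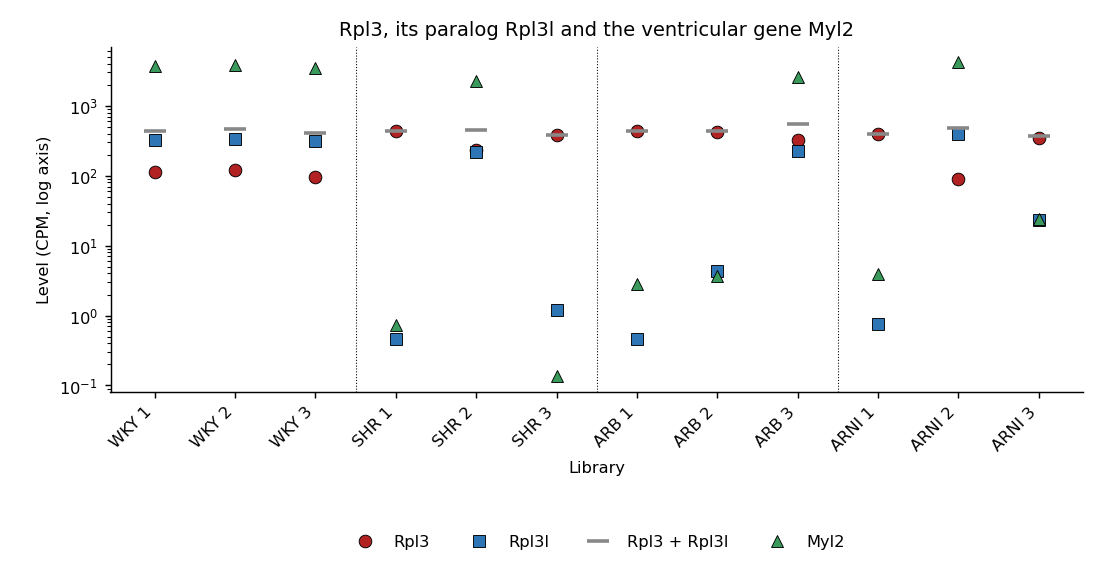
Levels of Rpl3, Rpl3l, their sum and the ventricular gene Myl2 in the 12 libraries, in CPM on a log axis. The sum stays between 369 and 554 CPM, while Rpl3l is at 220 CPM or more in the 6 libraries in which Myl2 is at 2298 CPM or more, and Rpl3 is lowest in WKY 1 to 3 and ARNI 2.

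Rps19, a small subunit protein whose mutation causes Diamond-Blackfan anemia, had the largest fold change. The row named Rps19 was at 6.12, 9.84 and 0 CPM in WKY and 122, 139 and 86.7 CPM in SHR. It was at 127, 127 and 174 CPM in ARB and 91.3, 65.4 and 71.1 CPM in ARNI. Unlike Rpl3, it lay above all WKY libraries in all 9 libraries of the other groups, of which ARNI replicate 2 was the lowest. The log2 fold change between SHR and WKY was 4.32 (SE 0.906, adjusted p = 0.0237 by edgeR). It was 4.54 with the chamber marker score as a covariate (adjusted p = 0.0641).

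This row is of uncertain identity. Its gene ID (108348115 in the files) was not found in the GRCr8 gene table, in which the ID of the row named Rps19l2 (29287) carries the symbol Rps19. Rps19l2 was at 155, 153 and 157 CPM in WKY, 105, 63.7 and 97.8 CPM in SHR, 122, 83.0 and 118 CPM in ARB and 87.3, 103 and 124 CPM in ARNI. It fell between WKY and SHR (log2 fold change -0.94, SE 0.168, adjusted p = 0.0160 by edgeR). The sum of both rows was 161, 162 and 157 CPM in WKY and 227, 202 and 184 CPM in SHR. Tested as 1 gene, chosen after the values were seen, the sum had a log2 fold change of 0.22 (SE 0.123, adjusted p = 0.221 by edgeR), near the median of the members. In 11 of 12 libraries the Rps19 value was not whole.

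**Figure D5:**
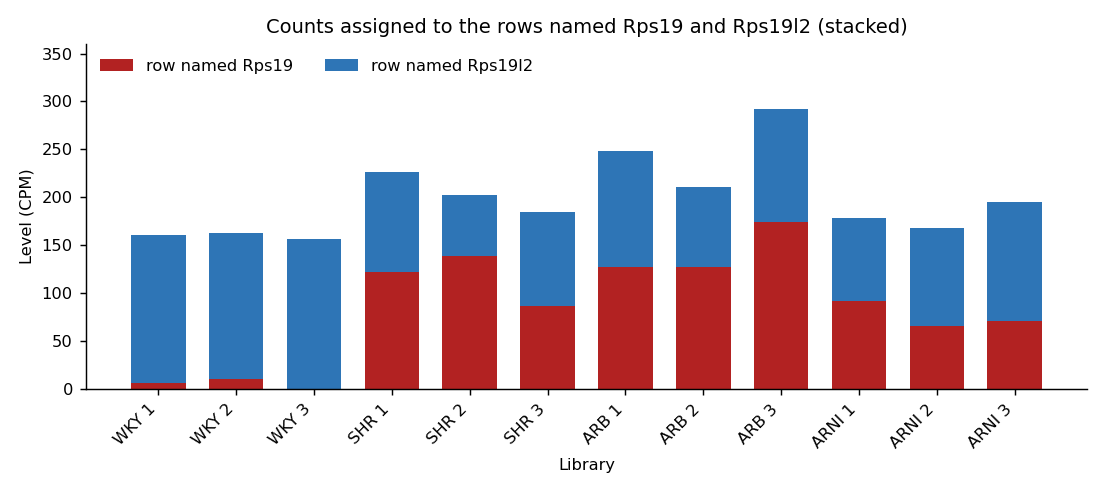
Levels in CPM of the rows named Rps19 and Rps19l2, stacked, in the 12 libraries. The WKY bars are nearly all Rps19l2, the other 9 libraries hold both, and the total runs from 157 to 292 CPM.

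Other identifiers also differed from GRCr8. Of the 77 member IDs, 74 were found there, those of Rps19, Rpl37a and Rpl35a were not, and the ID of Rpl37 is named Rpl37l1. The row named Rps9l1 carries the ID that GRCr8 names Rps9, a small subunit protein that had no counts under its own name. It was at 177, 186 and 161 CPM in WKY and 293, 250 and 262 CPM in SHR, without overlap. It rose between WKY and SHR (log2 fold change 0.49, SE 0.110, adjusted p = 0.0287 by edgeR).

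The other members that rose did so by 0.46 to 0.54 on the log2 scale. Rps7, which is required for processing of the small subunit rRNA, was at 312, 326 and 277 CPM in WKY and 553, 440 and 443 CPM in SHR (log2 fold change 0.52, SE 0.140, adjusted p = 0.0450 by edgeR). Rpl37a was at 124, 128 and 109 CPM in WKY and 223, 182 and 172 CPM in SHR (log2 fold change 0.54, SE 0.140, adjusted p = 0.0402 by edgeR). In both, the SHR libraries lay above the WKY libraries, and ARNI replicate 2 was nearer to WKY, at 335 CPM for Rps7 and 132 CPM for Rpl37a. Rps10, Rps16, Rpl31 and Rpl36a had adjusted p-values of 0.0411 to 0.0438, close to the threshold. Reads of all 6 genes were shared with other genes, since none of their values was whole in 12 libraries, or in 11 for Rpl36a.

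Rplp1 was the member that fell. It encodes an acidic protein that pairs with Rplp2 on the P stalk, the site where elongation factors bind. Rplp1 was at 207, 249 and 175 CPM in WKY and 136, 109 and 143 CPM in SHR. It was at 204, 129 and 227 CPM in ARB and 131, 132 and 158 CPM in ARNI. The WKY and SHR libraries did not overlap, and 2 of the 3 ARB libraries were within the WKY range. The log2 fold change was -0.84 (SE 0.150, adjusted p = 0.0159 by edgeR), and none of its values was whole. Its partner Rplp2 had a log2 fold change of 0.08 (SE 0.133) and Rplp0 one of 0.27 (SE 0.142), and neither passed the test.

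By subunit, 4 of 43 large subunit genes rose (median log2 fold change 0.22) and 4 of 31 small subunit genes rose (median 0.27), both near the 12.3% of all genes. Of the 18 members mutated in Diamond-Blackfan anemia, 3 rose (the uncertain row named Rps19, Rps10 and Rps7), against the same 12.3%, with a median of 0.29. Summed with Rps19l2, Rps19 was not called, as given above.

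Rpsa, which also serves as a laminin receptor at the cell surface, was at 511, 543 and 440 CPM in WKY and 825, 719 and 712 CPM in SHR, and its log2 fold change of 0.46 missed the threshold (adjusted p = 0.0570 by edgeR). Rpl10 (log2 fold change 0.54, adjusted p = 0.0596 by edgeR) and Rps4x (0.44, adjusted p = 0.0576) also missed it narrowly. Rps6, the substrate of the S6 kinases, was at 497, 500 and 431 CPM in WKY and 542, 493 and 465 CPM in SHR, with a log2 fold change of -0.06 (SE 0.130), or 0.07 without TMM. Rpl5 and Rpl11, which bind Mdm2 when ribosome assembly fails, had values of -0.06 (SE 0.118, or 0.07 without TMM) and 0.20 (SE 0.127). Rpl22, an RNA-binding protein of the large subunit, was at 0.07 (SE 0.115), Rps27a, which is made as a fusion with ubiquitin, at 0.27 (SE 0.135) and Rpl39 at 0.40 (SE 0.147), and none of these passed the test.

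The 3 WKY libraries lay below all 9 libraries of the other groups for 33 of the 77 members, against 10.1% of all genes. They lay above all 9 for 0 members, against 6.81% of genes. These shares use CPM without TMM, and the TMM factors were 0.938 to 0.957 in WKY and 0.906 to 1.11 in the other libraries.

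Fau and Rack1, ribosomal proteins whose symbols the naming rule leaves out, were called in no comparison. Fau, a ubiquitin-like fusion with Rps30, was at 158, 160 and 150 CPM in WKY and 229, 202 and 165 CPM in SHR (log2 fold change 0.22, SE 0.155). Rack1, a scaffold on the small subunit head, had 0.20 (SE 0.136). Both were highest in ARB replicate 3. The naming rule also leaves out 7 listed paralogs with counts, and Rps19l2, Rps9l1 and Rps10l1, which are not in that list. Rps19l2 fell and Rps9l1 rose between WKY and SHR, as given above. Rps10l1 did not pass the test (log2 fold change 0.32, adjusted p = 0.111 by edgeR). Of the 7 listed, Rpl39l was too low to be tested. The other 6 (Rpl3l, Rpl7l1, Rpl10l, Rpl22l1, Rpl36al and Rps27l) had 5 positive estimates and 1 negative one between SHR and WKY, and none passed the test. The lowest p was that of Rpl10l, a copy of Rpl10 best known from testis (log2 fold change 0.94, SE 0.282, adjusted p = 0.0581 by edgeR).

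Other genes that build or use ribosomes are given beside the shares of 12.3% of all genes that rose and 8.26% that fell between WKY and SHR. Of 47 ribosome biogenesis factors, 6 fell and none rose (median log2 fold change -0.12), among them Gnl3, a nucleolar GTPase (-0.56, SE 0.127), and Nmd3, the export adaptor of the large subunit (-0.67, SE 0.153). Of 49 initiation factors tested, 2 rose and 8 fell (median -0.07), and of 25 subunits and factors of RNA polymerases I and III, 2 rose and 3 fell. Of 15 translation factors whose mRNAs carry a TOP tract, 9 had a higher estimate (median 0.06) and 1 rose, Eef1a1, the factor that brings tRNA to the ribosome (0.91, SE 0.233, adjusted p = 0.0389 by edgeR). Of 21 genes of mTORC1 and TOP control, 1 rose, Eif4ebp1, a repressor of translation initiation (0.92, SE 0.123, adjusted p = 0.00756 by edgeR), and 4 fell.

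The mitochondrial ribosomal proteins had a negative median. Of 75 tested, 66 had a lower level in SHR than in WKY (median log2 fold change -0.38), 5 fell and none rose, a share near the 8.26% of all genes, among them Mrpl4 (-1.37, SE 0.215, adjusted p = 0.0116 by edgeR). Their summed level was 4088 to 4128 CPM in WKY and 4501 CPM in ARNI replicate 2, but 2743 to 3999 CPM in SHR. The nuclear respiratory chain genes were lower in 70 of 79 (median -0.41), with 2 that rose and 1 that fell, and the proteasome genes in 31 of 39 (median -0.20), with 1 in each direction. The libraries rich in Myl2 were the highest in both mitochondrial lists, at 3999 to 4501 CPM for the mitochondrial ribosomal proteins against 2743 to 3368 CPM in the others, and the part of the chamber in this was not tested.

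The comparison of ARB with SHR asks what valsartan changed. No member passed the test by edgeR (0 of 77, against 0% of 13979 genes). An unadjusted p under 0.05 was found for 1 member, against 225 of all genes. DESeq2 called no member, against 3 of 18523 genes. All 77 members had a higher estimate in ARB, with a median log2 fold change of 0.35, against -0.01 over all genes, and a range of 0.17 (Rps13) to 0.68 (Rps26). The middle 50% of members lay between 0.30 and 0.40, while that of all genes lay between -0.15 and 0.13. The median SE of a member was 0.226. Since the members move together between libraries, their common direction counts as 1 observation over 3 libraries against 3, and not as 77.

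The groups overlapped for most members. The 3 ARB libraries lay above the 3 SHR libraries for 8 members, against 2.4% of all genes, and below for 0, against 3% of genes. After TMM scaling 1 member lay above without overlap, against 2.56% of genes. Without ARB replicate 3 the median log2 fold change was 0.17, and without ARB replicate 2 it was 0.50.

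Rps26, which contacts mRNA upstream of the start codon, had the lowest p. It was at 71.1, 60.9 and 49.8 CPM in SHR and 97.3, 78.6 and 109 CPM in ARB, without overlap (log2 fold change 0.68, SE 0.225, unadjusted p = 0.0195 and adjusted p = 0.9999 by edgeR). Rplp1 had 0.58 (SE 0.259) and Rps23, a protein of the decoding center, had 0.39 (SE 0.185). Rps23 was at 192, 155 and 171 CPM in SHR and 214, 193 and 253 CPM in ARB, and only Rps26 and Rps23 of these 3 did not overlap. Rpl5, at 406, 373 and 352 CPM in SHR and 415, 428 and 506 CPM in ARB, also lay above without overlap.

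Other genes of protein synthesis and turnover shared the direction without passing the test. The estimate was higher in ARB for 13 of 15 TOP translation factors (median 0.20), 70 of 75 mitochondrial ribosomal proteins (0.15), 75 of 79 respiratory chain genes (0.21) and 39 of 39 proteasome genes (0.13). For ribosome biogenesis factors it was higher for 30 of 47 (0.05). Erythroid markers had a median of 1.10 (4 of 4 higher) and myeloid markers one of 0.59 (10 of 10 higher), and none of these genes passed the test. In each of these lists but the last 2 the median lay below that of the cytosolic ribosomal proteins.

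Between ARNI and SHR the members had a median near that of all genes. No member passed the test by edgeR (0 of 77, against 0% of 13955 genes). An unadjusted p under 0.05 was found for 0 members, against 227 of all genes. DESeq2 called no member, against 9 of 18605 genes. The median log2 fold change was -0.04, against 0.00 over all genes, and 20 members were above 0. The ARNI libraries lay above SHR for 0 members, against 1.38% of genes, and below for 2 (Rpl27 and Rps27), against 5.18%. Without SHR replicate 1 the median was 0.04 and 53 members were above 0, so the sign rested on that library. Without SHR replicate 3 the median was -0.15 and 3 members were above 0.

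The lowest p-values belonged to Rps19, Rplp1 and Rpl37a, with log2 fold changes of -0.54 (SE 0.233), 0.20 (SE 0.135) and -0.19 (SE 0.159). Rps19 overlapped between the groups, with 86.7 CPM in SHR replicate 3 and 91.3 CPM in ARNI replicate 1. Rps27, a zinc finger protein of the small subunit, was at 304, 232 and 218 CPM in SHR and 214, 205 and 205 CPM in ARNI. Leaving out SHR replicate 2 and ARNI replicate 2 together, the library of intermediate and the library of absent atrial markers, gave a median of -0.03. The mitochondrial ribosomal proteins had a median of 0.19, with 67 of 75 higher in ARNI, and the highest value was in ARNI replicate 2.

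Between ARNI and ARB nearly all members had a lower estimate in ARNI. This comparison uses the same ARB and ARNI libraries as the preceding ones. No member passed the test by edgeR (0 of 77, against 0% of 13948 genes). An unadjusted p under 0.05 was found for 7 members, against 539 of all genes. DESeq2 called no member, against 23 of 18573 genes. The median log2 fold change was -0.41, against 0.02 over all genes, and 75 members were lower in ARNI, with Rpl9 and Rps20 as exceptions. In CPM the ARNI libraries lay below the ARB libraries for 54 members, against 7.52% of genes, and above for 0, against 3.01%. After TMM scaling 27 members lay below without overlap, against 5.35% of genes. Without ARB replicate 3 the median was -0.22.

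Rps19 had the lowest p (log2 fold change -0.87, SE 0.217, unadjusted p = 0.00629 and adjusted p = 0.993 by edgeR), and its sum with Rps19l2 had -0.43 (SE 0.195). Rps12, a small subunit protein, was at 298, 263 and 356 CPM in ARB and 210, 157 and 235 CPM in ARNI (-0.57, SE 0.207). Rpl39, a small protein of the exit tunnel, was at 99.7, 79.5 and 122 CPM in ARB and 58.6, 63.3 and 74.9 CPM in ARNI (-0.57, SE 0.225). In both genes the groups did not overlap. The mitochondrial ribosomal proteins (median 0.02) and the proteasome genes (median -0.02) were near 0.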

How the data were processed

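The authors filtered single-end reads from oligo(dT)-enriched RNA with SOAPnuke, aligned them with HISAT2 2.0.4 and Bowtie2 2.2.5, as the submitters' processing notes also state, and deposited RSEM's expected counts for each gene, which are not normalized. The genome build named in those notes is Rnor_6.0. The deposited table also holds the authors' own log2 fold change and p-value of SHR against WKY, which were not used.

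Expected counts were rounded to whole numbers, filtered with filterByExpr, scaled by TMM and tested with edgeR 4.0.16 (R 4.3.3) on the 6 libraries of each pair, with Benjamini-Hochberg adjustment over all genes tested. SEs were derived from the F statistic. CPM are counts scaled to a library total of 1000000. DESeq2 1.42.0 was an alternative. The steps were tested on simulated data. Python 3.11.15, pandas 2.3.3 and matplotlib 3.10.9 were used for start sites and plots. The marker score was the mean log2(CPM + 1) of atrial minus that of ventricular markers. Intervals for counts of 0 (3 reads) cover counting error only.

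Members and gene lists were chosen with earlier results of these data known. Named members were the 8 of highest mean CPM, the 3 called with the largest rise and fall in a comparison (otherwise the 3 of lowest p), and genes named for their role. Others were singled out after their values were seen. For ARNI and SHR, libraries with the same replicate number deviated together (correlations over genes of 0.61, 0.62 and 0.28), and the labels do not say what a number marks.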

Additional observations from a re-analysis of the deposited data

How the results depend on the processing

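In the comparison of SHR with WKY, 9 members and 20.6% of all genes were called. The number was 15 with DESeq2 (19.6% of all genes), 25 with library totals without TMM (24.8%), 4 with no filter on low counts (13.4%), 3 in 1 fit of all 12 libraries (8.15%) and 0 with the chamber marker score as a covariate (0.816%). With a replicate block it was 2 (7.47%). Leaving out 1 library gave 0 to 26. The cause of these changes was not tested, and some of these fits also used fewer libraries or tested more genes. In the other 3 comparisons, 0 members were called under every alternative run, the replicate block included. For SHR and WKY, ARB and SHR, and ARNI and ARB, the correlations of deviations differed in sign between replicate numbers, from -0.52 to 0.65. The highest was that of replicate 1 of ARNI and ARB. What part the chamber had in the correlations of any pair was not tested. The medians of the members kept their sign under all alternatives run except ARNI against SHR without SHR replicate 1 (0.04). Rps19 summed with Rps19l2 lost its call (log2 fold change 0.22), an alternative chosen after seeing the data. For the 9 members called between SHR and WKY and the 3 of lowest p in each other comparison, the 238 values under alternatives kept their sign, and 60 of them, all between SHR and WKY, lost the call. Other members can change sign: without TMM, 73 members were above 0 between SHR and WKY, against 69. With 3 libraries a group, a median difference of 0.35 on the log2 scale was not detectable in single members at the SE between ARB and SHR.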
